A study of Caenorhabditis elegans with 6 samples.

Results

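The Caenorhabditis elegans homeobox genes named ceh were examined in intestinal and non-intestinal cells of L1 larvae. Members were the rows of the count table whose symbol was ceh followed by a number, apart from ceh-13 and ceh-20. There were 53 of them among 14605 worm gene rows. A further 10 ceh names of the RefSeq gene table had no row in the count table used here and were not analysed. Members were picked by name alone, but the rule was set with earlier results of these data known.

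Intestinal cells were compared with non-intestinal cells that divide in the L1 stage, with 3 libraries each. Each library came from a pool of 500 cells of 4N DNA content, prepared by an adapted CEL-seq protocol that reads the 3′ end of transcripts. All 6 pools, the non-intestinal ones included, carried the transgene ccyIS27. In it elt-2p, the promoter of an intestinal GATA factor gene, drives the red markers mCherry-PH and, after a P2A peptide, H2B-mCherry. The non-intestinal pool mixes every kind of dividing cell that was collected, so that fewer cells of a type and less RNA per cell cannot be told apart.

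Homeobox genes encode transcription factors that bind DNA through a helical domain, the homeodomain, and are sorted into classes by that domain and the motifs beside it. In C. elegans many of them act late in a lineage, where combinations of homeodomain proteins set the identity of single neuron classes. Others act in epidermis, pharynx, muscle, gonad or intestine, and some are expressed widely.

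Worm gene counts per library ranged from 1222704 to 21040813, a 17.2-fold range, and replicate 3 was the shallowest in either group. Levels are given as CPM, counts scaled to a common library total adjusted by TMM factors unless another scaling is named. A count of 3, the limit used here for few counts, corresponded to between 0.136 CPM, in non-intestinal replicate 2, and 2.40 CPM, in intestinal replicate 3. The cell labels were checked with cell type markers. Those of neurons, pharynx and body wall muscle, given further below, had 0 genes called in the fit without a block. In intestinal replicates 1 and 2 the neuronal markers summed to 313 and 232 CPM, near the 285 to 297 CPM of non-intestinal libraries. Of 8 tested intestinal markers 8 were higher in intestinal libraries, where their summed level was 5920 to 6760 CPM, against 41.3 to 165 CPM in non-intestinal libraries. Of 7 tested germline markers 7 were lower in intestinal libraries, with summed levels of 12 to 49.6 CPM, against 694 to 764 CPM. Markers of epidermis and seam summed to 42.3 to 148 CPM in intestinal libraries, against 422 to 455 CPM in non-intestinal libraries, with 1 of 6 tested called lower and 1 called higher (3 lower and 0 higher with the replicate number as a block). Of the fixed markers, nhr-73 (epidermis), myo-3 (body wall muscle) and nos-2 (germline) had no count in any intestinal library, and every other marker with a row had counts in both groups.

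Some ceh genes, like other worm genes, had few counts. At 3 or fewer counts in every library of a group were 13 of the 53 members (24.5%) for intestinal libraries and 15 (28.3%) for non-intestinal ones. Of all 14605 worm gene rows, 2797 were at this level in intestinal and 2916 in non-intestinal libraries. The order of the groups depends on depth: after thinning to equal depth 34 members were at this level in intestinal and 30 in non-intestinal libraries. The number was 20 in the intestinal libraries without replicate 1 and 23 in the non-intestinal ones without replicate 2. The share of all worm gene rows at this level was not computed at equal depth or without a library. Every worm gene row of the table, and so each of the 53 members, had a count in at least 1 library. These shares cover those members alone. In both groups 11 members were at or under this level: ceh-12, ceh-24, ceh-28, ceh-30, ceh-36, ceh-51, ceh-57, ceh-76, ceh-84, ceh-87 and ceh-90. Their totals over all 6 libraries ran from 1 to 6 counts. Several of these have known posts in narrow lineages. The gene ceh-36 specifies the olfactory neuron AWC and the taste neuron ASE, ceh-51 acts in the early mesoderm, ceh-30 protects male-specific sensory neurons from cell death, and ceh-28 and ceh-12 act in a pharyngeal and a ventral cord motor neuron. At the other end, 6 members had more than 3 counts in all 6 libraries: ceh-18, ceh-38, ceh-44, ceh-89, ceh-91 and ceh-100.

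**Figure D1:**
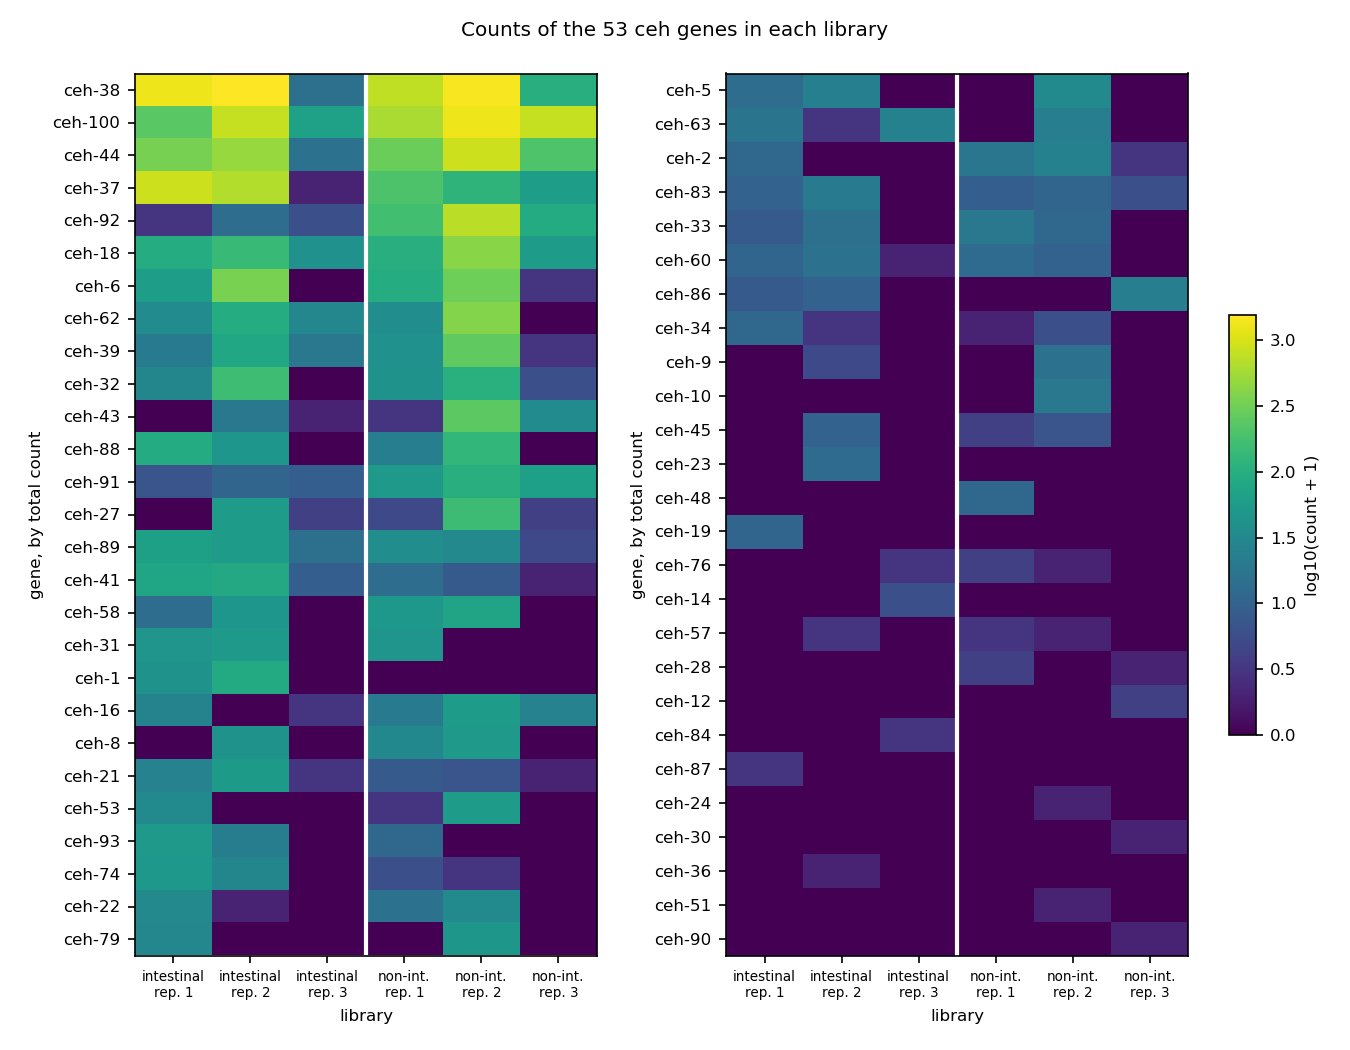
Raw counts of the 53 members (rows, ordered by total count over both panels) in the 3 intestinal and 3 non-intestinal libraries (columns), coloured by log10(count + 1). The upper rows of the left panel have counts in most libraries, while the 11 members at or under 3 counts in every library lie in the lower part of the right panel.

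Fewest members were detected in the shallow libraries. Counts above 0 were found for 34, 36 and 20 members in intestinal replicates 1, 2 and 3, and for 35, 38 and 23 members in non-intestinal replicates 1, 2 and 3. After each library had been thinned to 1222704 counts, 26, 23 and 20 members were detected in the intestinal replicates, against 29, 27 and 21 in the non-intestinal replicates. The intestinal library of each replicate number thus had fewer detected members at equal depth, by 3, 4 and 1 genes, and the groups overlapped. Detected at that depth were 37.7% to 49.1% of members in intestinal libraries, where it was 56.1% to 66.9% of all worm genes. In non-intestinal libraries it was 39.6% to 54.7% of members and 63.1% to 66.5% of all worm genes.

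Of the 53 members, 25 passed the filter on low counts and entered the test, a quasi-likelihood fit by edgeR over 9203 genes. Called lower in intestinal cells at an edgeR adjusted p under 0.05 was 1 member, ceh-92, against 7.64% of all genes tested, and called higher were 0 members, against 13.5% of all genes tested. At an unadjusted p under 0.05 there were 3 members, ceh-92, ceh-100 and ceh-44, where 34.5% of all genes tested were under that level. DESeq2 called 0 members higher and 2 lower, ceh-92 and ceh-100, against 33.2% of all genes tested in either direction. The fitted log2 fold change was positive for 10 tested members and negative for 15, with a median of −0.22, beside −0.34 for all genes tested. Scaling by library totals alone moved these medians to −0.80 and −0.84. With the replicate number as a block they were −0.75 for the members and −0.36 for all genes tested, and without intestinal replicate 2 they were −1.02 and −0.48, so that their order depends on the fit. Intestinal and non-intestinal CPM values did not overlap for 7 of the 25, against 45.4% of all genes tested. The tested members had few counts and varied more between replicates. Their median average level was 1.92 log2 CPM, against 4.30 for all genes tested, and their median biological coefficient of variation was 1.06, against 0.711. Their median standard error was 1.32 log2 units, against 0.92.

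**Figure D2:**
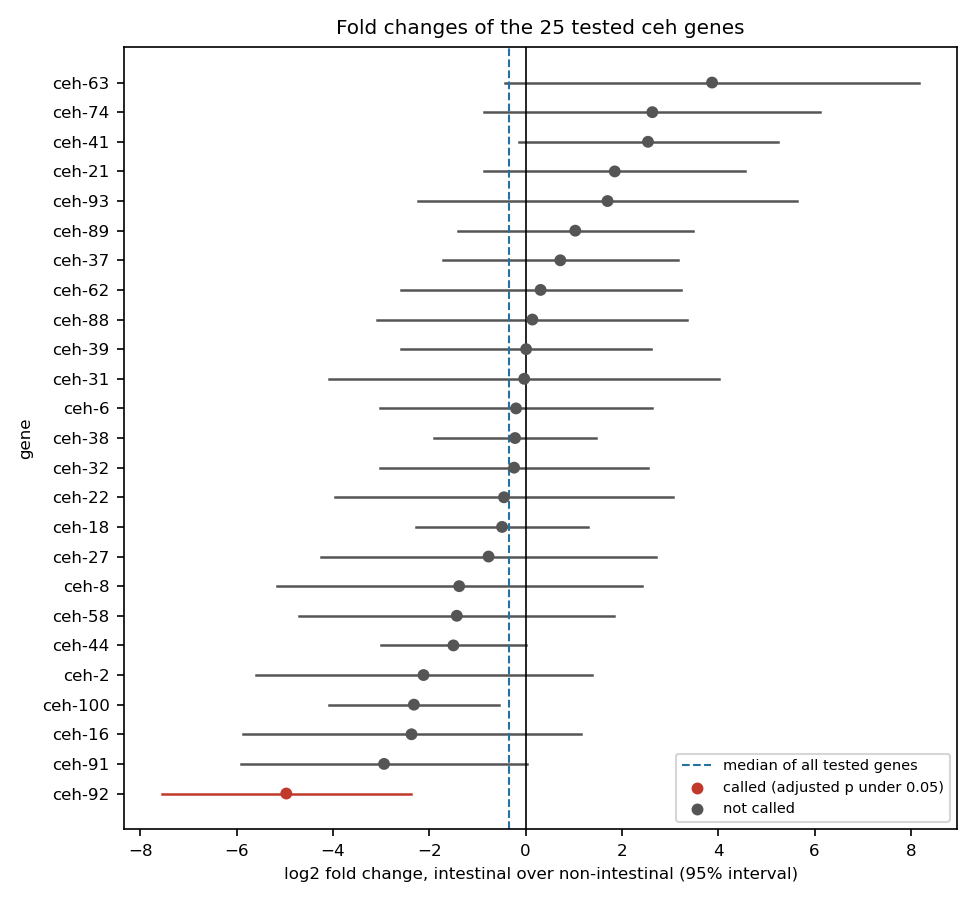
Log2 fold change of intestinal over non-intestinal cells (x axis) for the 25 tested members, with 95% intervals from the edgeR fit. The interval of ceh-92 runs from −7.55 to −2.39, that of ceh-100 from −4.08 to −0.56, and that of ceh-44 ends at 0 after rounding.

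The member that fell was ceh-92 (Y66D12A.5), a homeobox gene of chromosome III (WBcel235, 11581600 to 11589133, plus strand). It had 2, 13 and 5 counts in intestinal replicates 1, 2 and 3, against 169, 725 and 92 in the non-intestinal replicates. On average ceh-92 stood at 1.64 ± 2.06 CPM over intestinal libraries, against 36.5 ± 11.9 CPM over non-intestinal ones (SD, n = 3 in both). Every non-intestinal library lay far above every intestinal one, and the highest intestinal value, 3.99 CPM, came from the 5 counts of the shallow replicate 3. This gave a log2 fold change of −4.97 ± 1.17 SE (adjusted p = 0.013 by edgeR), or −4.64 relative to the median of all genes tested. Its edgeR adjusted p was 0.052 without non-intestinal replicate 2 and at most 0.045 without any other single library. Among all genes tested, 8.46% were called lower under RLE scaling, 14.4% with totals as the only scaling, 6.51% with no filter on counts, 7.19% with at least 10 counts in 3 libraries, 9.84% with the replicate block and 11.4% at equal depth. Without intestinal replicate 1, 2 or 3 this share was 2.2%, 7.21% or 4.75%, and without non-intestinal replicate 1, 2 or 3 it was 3.67%, 3.94% or 4.94%. The germline and epidermal marker sums given above were also lower in intestinal libraries, and their part in the value of ceh-92 was not tested.

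The gene ceh-91 (Y66A7A.5) lies on the same strand 27612 bases beyond ceh-92, with 5 coding genes between them. It had 6, 10 and 8 counts in the intestinal replicates, against 53, 103 and 63 in the non-intestinal replicates. Raw counts thus parted the groups, but the CPM values did not, since intestinal replicate 3 reached 6.39 CPM and non-intestinal replicate 2 only 4.67 CPM. The log2 fold change of −2.94 ± 1.35 (SE) had an edgeR adjusted p of 0.15 and was not called. With the replicate number as a block the gene was called lower, at −3.14 (edgeR adjusted p = 0.044). It was also called without intestinal replicate 3, at −4.78 (edgeR adjusted p = 0.030), whereas without non-intestinal replicate 3 the fold change was −1.20 (edgeR adjusted p = 0.62).

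The gene ceh-100 (Y38E10A.6), on chromosome II, had 236, 815 and 66 counts in the intestinal replicates, against 616, 1284 and 804 in the non-intestinal replicates. The groups did not overlap, at 19.6, 46.8 and 52.7 CPM in intestinal libraries, against 97.9, 58.2 and 436 CPM in the others. Its log2 fold change was −2.32 ± 0.80 SE (adjusted p = 0.062 by edgeR), which missed the threshold. It was called lower with the replicate number as a block, at −1.91 (edgeR adjusted p = 0.042), with totals as the only scaling, at −2.73 (edgeR adjusted p = 0.037), and with no filter on counts, at −2.29 (edgeR adjusted p = 0.0064). Without non-intestinal replicate 3 it was −0.66 (edgeR adjusted p = 0.54). Non-intestinal replicate 3 therefore sets most of the size of this difference. Counts of ceh-100 made up 6.42%, 16% and 25.4% of all ceh counts in the intestinal replicates and 22.3%, 18.1% and 53.9% in the non-intestinal replicates.

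The summed level of all 53 members was 268 ± 52.8 CPM over intestinal libraries, against 523 ± 254 CPM over non-intestinal ones (SD, n = 3 in both). It was lower in each intestinal library, at 305, 292 and 208 CPM, than in any non-intestinal library, at 439, 322 and 809 CPM. Without ceh-100 the sums were 285, 245 and 155 CPM for intestinal libraries, against 341, 263 and 373 CPM for non-intestinal ones. These sums overlapped, as did those without ceh-100 and ceh-92, at 285, 245 and 151 CPM for intestinal libraries, against 314, 231 and 323 CPM for non-intestinal ones. The overlap depends on the scaling: by library totals alone, the sums without ceh-100 and ceh-92 were 203, 203 and 155 CPM for intestinal libraries, against 403, 255 and 378 CPM for non-intestinal ones.

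**Figure D3:**
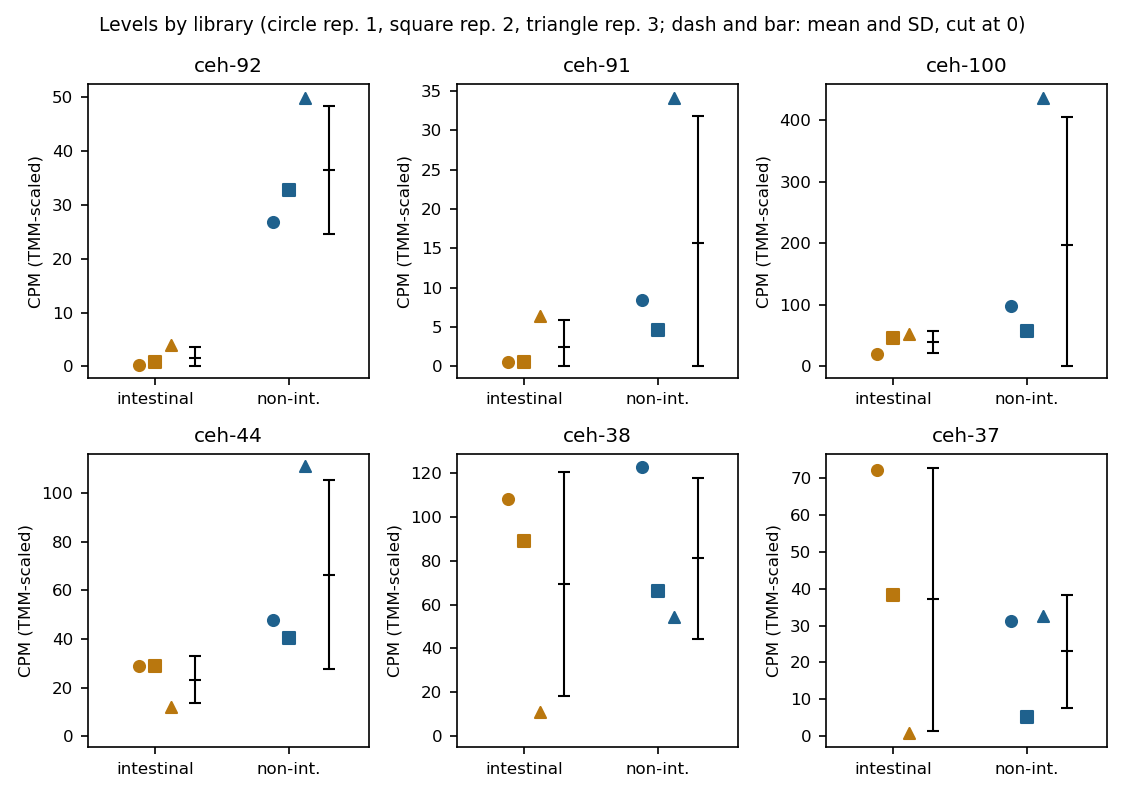
TMM-scaled CPM (y axes, each from 0) of 6 members in intestinal (left) and non-intestinal (right) libraries, with the mean and SD beside the points and bars that would pass below 0 cut there. The groups part in ceh-92, ceh-100 and ceh-44, and triangles mark the shallow replicate 3, which is the highest non-intestinal value of ceh-92, ceh-91, ceh-100, ceh-44 and ceh-37 and the lowest intestinal value of ceh-44, ceh-38 and ceh-37.

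CUT class proteins carry one or more CUT domains beside the homeodomain. In C. elegans the onecut genes and the CUX gene ceh-44 act together in neurons on genes that all neurons share. Of the 6 CUT members in the table, 5 were tested and 0 were called in either direction, against 7.64% lower and 13.5% higher among all genes tested. Their median log2 fold change was 0.01, beside −0.34 for all genes tested. The gene ceh-44 (Y54F10AM.4) had 346, 500 and 15 counts in intestinal replicates, against 300, 889 and 205 in non-intestinal replicates. Its level was 23.1 ± 9.65 CPM over intestinal libraries, against 66.4 ± 38.9 CPM over non-intestinal ones (SD, n = 3 in both), with no overlap. The log2 fold change was −1.50 ± 0.68 SE (adjusted p = 0.14 by edgeR), and under scaling by library totals alone it was called, at −2.04 (edgeR adjusted p = 0.043). The Ensembl annotation names this locus cone-1 and gives it 3 transcripts with 2 different ends, at 2543056 and 2546420 of chromosome III, and the counts do not part them. How much of the level given for ceh-44 belongs to transcripts that encode the homeodomain is therefore not known.

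The onecut gene ceh-38 (F22D3.1) had 1304, 1550 and 14 counts in intestinal replicates, against 775, 1459 and 100 in non-intestinal replicates. Its level was 69.4 ± 51.3 CPM over intestinal libraries, against 81.1 ± 36.9 CPM over non-intestinal ones (SD, n = 3 in both), and the groups overlapped. The log2 fold change of −0.22 had a 95% interval from −1.90 to 1.46 and an edgeR adjusted p of 0.87. Its locus overlaps tra-2 on the opposite strand, and whether counting used the strand is not given in the sources used here. The onecut gene ceh-48 had 11 counts in non-intestinal replicate 1 and 0 in the other libraries.

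Further onecut genes with a row, ceh-39, ceh-21 and ceh-41, lie side by side on the X chromosome, transcribed from the minus strand in that order. Between ceh-39 and ceh-21 there are 1137 bases and 1 coding gene, and between ceh-21 and ceh-41 only 103 bases. The gene ceh-39 is a dose signal of the X chromosome in sex determination. It had 20, 78 and 18 counts in intestinal replicates, against 40, 254 and 2 in non-intestinal replicates, with overlapping groups and a log2 fold change of 0.01 ± 1.18 SE (adjusted p = 1.0 by edgeR). Downstream of it, ceh-21 had 25, 54 and 2 counts in intestinal replicates, against 7, 6 and 1 in non-intestinal replicates. The last gene of the row, ceh-41, had 76, 84 and 8 counts in intestinal replicates, against 13, 7 and 1 in non-intestinal replicates. For both of these the CPM values of intestinal libraries all lay above those of non-intestinal libraries, as for 21.9% of all genes tested. For ceh-21 this rests on few counts. The 2 counts of intestinal replicate 3 came to 1.6 CPM, against 1.11 CPM in non-intestinal replicate 1. The level of ceh-41 was 5.84 ± 0.878 CPM over intestinal libraries, against 0.975 ± 0.951 CPM over non-intestinal ones (SD, n = 3 in both), and that of ceh-21 was 2.26 ± 0.769 CPM and 0.642 ± 0.429 CPM (SD, n = 3 each). Neither passed the test, with log2 fold changes of 2.54 ± 1.22 for ceh-41 (SE, edgeR adjusted p = 0.17) and 1.85 ± 1.23 for ceh-21 (SE, edgeR adjusted p = 0.32). Whether the fold changes of the 3 neighbours differ was not tested, and as related genes at short distances their reads may be assigned with some uncertainty.

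**Figure D4:**
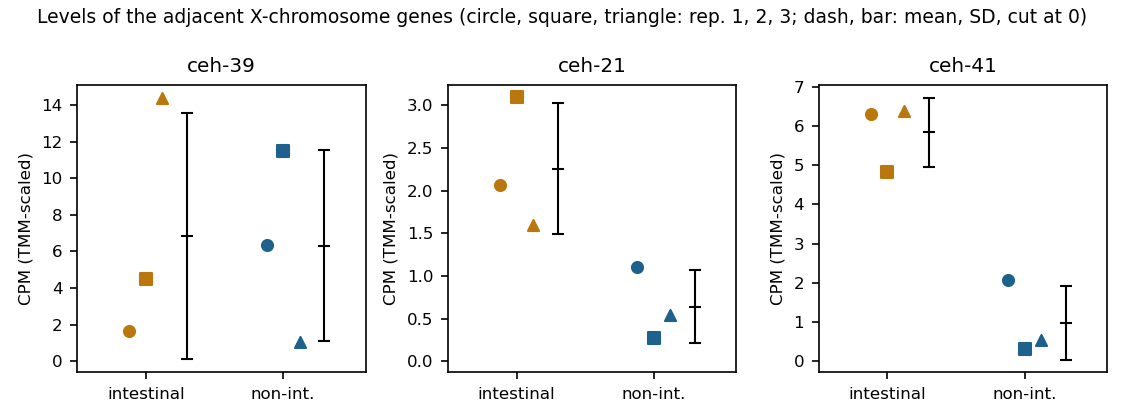
TMM-scaled CPM (y axes, each from 0) of the neighbouring onecut genes ceh-39, ceh-21 and ceh-41 in intestinal (left) and non-intestinal (right) libraries, with mean and SD, cut at 0, beside the points. For ceh-21 and ceh-41 all intestinal points lie above all non-intestinal points, while for ceh-39 they overlap. The lowest intestinal point of ceh-21, at 1.6 CPM, comes from 2 counts.

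A list of 20 genes that neurons share, fixed for the CUT class, had 19 tested genes, of which 2 were called higher and 0 lower in intestinal cells, against 13.5% higher and 7.64% lower among all genes tested. The median log2 fold change of the list was −0.29, against −0.34 for all genes tested. The genes called were egl-21, a peptide-processing enzyme, at 2.08 ± 0.53 SE (adjusted p = 0.018 by edgeR), and unc-18, a regulator of vesicle fusion, at 2.15 ± 0.68 SE (adjusted p = 0.047 by edgeR).

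TALE class proteins have a homeodomain with an extended loop, and those of the PBC family pair with other homeodomain proteins. The PBC member in the table, ceh-60 (F22A3.5), acts in the adult intestine, where it regulates the vitellogenin (yolk protein) genes. It had 10, 15 and 1 counts in intestinal replicates, against 12, 9 and 0 in non-intestinal replicates, and did not pass the filter. This was 0.830 ± 0.0314 CPM over intestinal libraries, against 0.772 ± 1.00 CPM over non-intestinal ones (SD, n = 3 in both), and the groups overlapped. Under the alternative filter of at least 10 counts in 3 libraries its log2 fold change was 0.04 (edgeR adjusted p = 0.99). Of 6 vitellogenin genes 2 had a row, vit-1 with 1 count in intestinal replicate 1 and vit-3 with 3 counts in non-intestinal replicate 1. The ceh-60 locus overlaps ets-4 on the opposite strand.

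POU class proteins carry a second DNA-binding domain, and both members were tested with 0 called, against 21.2% of all genes tested in either direction. The gene ceh-18, known for its part in gonadal sheath cells and oocyte arrest, had 94, 144 and 40 counts in intestinal replicates, against 103, 423 and 56 in non-intestinal replicates. For it the log2 fold change was −0.49 ± 0.81 SE (adjusted p = 0.70 by edgeR), with a 95% interval from −2.27 to 1.29. The gene ceh-6, which acts in the excretory canal and in the rectal cell Y, had 61, 355 and 0 counts in intestinal replicates, against 94, 304 and 2 in non-intestinal replicates. Both shallow libraries had nearly none of it, and its log2 fold change of −0.20 ± 1.28 SE (adjusted p = 0.93 by edgeR) was positive in 4 of the 6 leave-one-out fits.

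The sine oculis class was represented by ceh-32, ceh-33 and ceh-34, of which ceh-32 was tested. The gene ceh-32, needed for the shape of the head, had 28, 159 and 0 counts in intestinal replicates, against 42, 106 and 5 in non-intestinal replicates, with a log2 fold change of −0.24 ± 1.27 SE (adjusted p = 0.91 by edgeR). Its neighbours in class, ceh-33 and ceh-34, lie 3616 bases apart on chromosome V and were not tested. The counts of ceh-33 were 7, 14 and 0 in intestinal replicates, against 18, 11 and 0 in non-intestinal replicates. For ceh-34, which defines pharyngeal neurons, they were 11, 2 and 0 in intestinal replicates, against 1, 5 and 0 in non-intestinal replicates.

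Among the 6 paired-like members 2 were tested, with 0 called, against 21.2% of all genes tested in either direction. The OTX gene ceh-37, which acts in the olfactory neuron AWB, had 873, 667 and 1 counts in intestinal replicates, against 197, 117 and 60 in non-intestinal replicates. Its intestinal values were thus both the highest and the lowest of all, at 72.3, 38.3 and 0.799 CPM, against 31.3, 5.30 and 32.5 CPM in non-intestinal libraries. The log2 fold change was 0.72 ± 1.11 SE (adjusted p = 0.68 by edgeR), with 1.31 without intestinal replicate 3 and −0.16 without intestinal replicate 1. Also of the OTX family, ceh-36 lies 10805 bases away on the same strand, with no coding gene between, and had 1 count in all 6 libraries together. The gene ceh-8, of the Rx family, had 0, 42 and 0 counts in intestinal replicates, against 30, 51 and 0 in non-intestinal replicates, with a log2 fold change of −1.38 ± 1.72 SE (adjusted p = 0.60 by edgeR). The gene ceh-10, needed for the interneuron AIY, had 18 counts in non-intestinal replicate 2 and 0 elsewhere.

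The ANTP class with its NK-like members was the largest group with an assigned class, with 16 members. Of these, 5 were tested, and 0 were called, against 21.2% of all genes tested in either direction. Each of the 5 had a negative log2 fold change, with a median of −0.77 beside −0.34 for all genes tested, but the signs of ceh-22, ceh-27 and ceh-31 changed in some of the alternatives. The engrailed gene ceh-16, which acts in seam cells of the epidermis, had 26, 0 and 2 counts in intestinal replicates, against 19, 57 and 25 in non-intestinal replicates. Its CPM values did not overlap, at 1.25 ± 1.12 CPM over intestinal libraries, against 6.38 ± 6.21 CPM over non-intestinal ones (SD, n = 3 in both), but the log2 fold change of −2.37 ± 1.59 (SE) had an edgeR adjusted p of 0.32. The ceh-16 locus overlaps polk-1 on the opposite strand. The EMX-like gene ceh-2, which acts in the pharynx, had 11, 0 and 0 counts in intestinal replicates, against 17, 24 and 2 in non-intestinal replicates, also without overlap in CPM (log2 fold change −2.12 ± 1.58 SE, adjusted p = 0.37 by edgeR). In the shallow libraries 2 counts came to 1.6 CPM in intestinal replicate 3 (ceh-16) and to 1.08 CPM in non-intestinal replicate 3 (ceh-2).

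The Distal-less gene ceh-43, which acts in the anterior epidermis and in dopaminergic neurons, had 0, 18 and 1 counts in intestinal replicates, against 2, 242 and 34 in non-intestinal replicates. It did not pass the filter, and 2 non-intestinal libraries held nearly all of its counts. Without a filter its edgeR adjusted p was 0.054, and with the filter of at least 10 counts in 3 libraries it was 0.12. The pharyngeal muscle gene ceh-22, of the NK2 family, had 31, 1 and 0 counts in intestinal replicates, against 15, 32 and 0 in non-intestinal replicates. Another NK2 gene, ceh-27, had 0, 57 and 3 counts in intestinal replicates, against 4, 153 and 3 in non-intestinal replicates. The BarH gene ceh-31 had 45, 51 and 0 counts in intestinal replicates, against 45, 0 and 0 in non-intestinal replicates, and ceh-5 had 13, 23 and 0, against 0, 32 and 0. The edgeR adjusted p was 0.86 for ceh-22, 0.76 for ceh-27 and 0.99 for ceh-31.

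Counts in one group alone were found for 8 members at 0 in every intestinal library and 7 at 0 in every non-intestinal one. These were 15.1% and 13.2% of members, against 10.4% and 11.1% of all worm gene rows. Those with more than 3 counts in some library are described here. The gene ceh-1 had 41, 88 and 0 counts in intestinal replicates and 0 in each non-intestinal replicate. Its mean intestinal level was 3.78 times that of 3 counts in each non-intestinal library. This ratio leaves out the spread between intestinal replicates, and the groups overlapped since intestinal replicate 3 was at 0. It did not pass the filter, so that the test does not cover it. Without a filter it was called higher (edgeR adjusted p = 0.037), where 9.85% of all genes were. With 1 library left out, ceh-1 passed the filter only where intestinal replicates 1 and 2 were both kept, through their counts alone. It was then called without intestinal replicate 3, the intestinal library at 0 (edgeR adjusted p = 0.034), and without non-intestinal replicate 3 (edgeR adjusted p = 0.044). It was not called without non-intestinal replicate 1 (edgeR adjusted p = 0.092) or 2 (edgeR adjusted p = 0.11). Since the gene entered through the group where it was high, these calls add no support. Of all genes tested, 8.74% to 13.2% were called higher when 1 library was left out. Above 3 counts in 1 intestinal library and at 0 in the others were ceh-14, a LIM class gene of the thermosensory neuron AFD, with 5 counts in replicate 3, ceh-19 with 10 counts in replicate 1, and ceh-23 with 12 counts in replicate 2. In non-intestinal libraries the same held for ceh-10 and ceh-48. The members ceh-9, ceh-45, ceh-53, ceh-79, ceh-83 and ceh-86 also went untested, with 0 to 33 counts in intestinal and 0 to 55 counts in non-intestinal libraries.

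The 18 members with no class assigned here included ceh-92, ceh-91 and ceh-100, and 10 of them were tested. Of these, 6 had a positive and 4 a negative log2 fold change, with a median of 0.22 beside −0.34 for all genes tested. The gene ceh-89 had 64, 55 and 14 counts in intestinal replicates, against 36, 31 and 4 in non-intestinal replicates. It was one of the few members counted in every library, and its log2 fold change of 1.03 ± 1.11 SE (adjusted p = 0.54 by edgeR) had a 95% interval from −1.41 to 3.48. The gene ceh-62 had 34, 94 and 29 counts in intestinal replicates, against 36, 395 and 0 in non-intestinal replicates, with a log2 fold change of 0.31 ± 1.32 SE (adjusted p = 0.89 by edgeR). The gene ceh-88 had 91, 47 and 0 counts in intestinal replicates, against 22, 130 and 0 in non-intestinal replicates (log2 fold change 0.14 ± 1.46 SE, adjusted p = 0.96 by edgeR). Its locus shares the strand with the overlapping gene C49C3.6.

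Larger positive fold changes were fitted for ceh-63, ceh-74 and ceh-93, none of them called. The gene ceh-63 had 16, 2 and 24 counts in intestinal replicates, against 0, 22 and 0 in non-intestinal replicates, with the highest fitted value of the tested members, 3.87 ± 1.95 (log2 fold change, SE, edgeR adjusted p = 0.19), and 0.79 without intestinal replicate 3. It overlaps tag-52 on its own strand. The gene ceh-74 had 49, 28 and 0 counts in intestinal replicates, against 5, 2 and 0 in non-intestinal replicates (log2 fold change 2.63 ± 1.58 SE, adjusted p = 0.27 by edgeR). Its locus overlaps cest-2.3 on the opposite strand. The gene ceh-93 had 53, 21 and 0 counts in intestinal replicates, against 11, 0 and 0 in non-intestinal replicates (log2 fold change 1.70 ± 1.78 SE, adjusted p = 0.53 by edgeR). Both shallow libraries were at 0 for ceh-74 and ceh-93. For ceh-58 the counts were 13, 46 and 0 in intestinal replicates, against 49, 71 and 0 in non-intestinal replicates (log2 fold change −1.43 ± 1.48 SE, adjusted p = 0.53 by edgeR), while its neighbour ceh-57, 444 bases away on the same strand, had at most 2 counts in any library.

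The spread between replicates went beyond depth. For each member, the count that replicate 3 of a group would hold at the mean CPM of replicates 1 and 2 was computed. In intestinal replicate 3 this was at least 5 for 12 members, of which 6 fell short of it by more than 3 times, 4 of these with a count of 0, and 2 exceeded it by more than 3 times. For ceh-37 it was 69.3 where 1 was counted, for ceh-38 it was 123 where 14 were counted, and for ceh-6 it was 15.9 where 0 were counted. The members above it were ceh-18, with 10.1 where 40 were counted, and ceh-62, with 5.14 where 29 were counted. In non-intestinal replicate 3 it was at least 5 for 19 members, of which 7 fell short by more than 3 times and 4 exceeded it by more than 3 times. For ceh-100, 804 were counted where 144 would be held, for ceh-91, 63 where 12.1 would be held, and for ceh-16, 25 where 5.17 would be held.

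Markers of other cell types moved with intestinal replicate 3 as well. Neuronal markers summed to 313, 232 and 40.7 CPM in intestinal replicates 1, 2 and 3, against 297, 297 and 285 CPM in the non-intestinal replicates. Pharyngeal markers summed to 741, 592 and 40.7 CPM in the intestinal replicates, against 851, 1230 and 1240 CPM in the non-intestinal replicates. Body wall muscle markers summed to 3260, 1870 and 883 CPM in the intestinal replicates, against 5290, 2580 and 1830 CPM in the non-intestinal replicates. Of the tested markers 0 of 8 neuronal, 0 of 6 pharyngeal and 0 of 7 muscle genes were called (2 muscle genes lower with the replicate block); the member ceh-22 is itself on the pharyngeal list. Their part in the levels of ceh-37, ceh-38, ceh-6 or ceh-32 in intestinal replicates 1 and 2 was not tested.

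Homeobox genes without a ceh name were listed for comparison, leaving out Hox genes and their cofactors. Of 32 listed genes 31 had a row and 18 were tested, with 2 called higher and 2 lower in intestinal cells, against 13.5% and 7.64% of all genes tested. Their median log2 fold change was −1.25, against −0.34 for all genes tested. The genes that rose were dve-1, a regulator of the mitochondrial stress response, at 3.78 ± 0.73 SE (adjusted p = 0.0051 by edgeR), and zfh-2, which joins zinc fingers to homeodomains, at 2.84 ± 0.71 SE (adjusted p = 0.017 by edgeR). The level of dve-1 averaged 117 ± 76.7 CPM over intestinal libraries, against 8.40 ± 3.53 CPM over non-intestinal ones (SD, n = 3 in both). The genes that fell were mls-2, an HMX gene of the postembryonic mesoblast, at −3.89 ± 0.88 SE (adjusted p = 0.011 by edgeR), and the paired-box gene pax-3, at −3.32 ± 1.01 SE (adjusted p = 0.039 by edgeR). Whether the ceh genes and these genes differ as lists was not tested.

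In the genome the members were spread over all 6 chromosomes, with 16 of 53 (30.2%) on the X chromosome, where 14.4% of all named gene rows lie. Among adjacent pairs with no coding gene between them, ceh-36 had 1 count and ceh-57 had 5 counts over all libraries. Their neighbours ceh-37 and ceh-58 are described above, and ceh-30 had 1 count where ceh-31 had 141. In the remaining such pairs both members had more counts, at 50 for ceh-33 and 19 for ceh-34, and 189 for ceh-41 and 95 for ceh-21. The annotation gives 11 members a coding gene that overlaps them, on the same strand for 2 and on the opposite strand for 9, and the counts of these are uncertain to that extent.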

How the data were processed

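Per the labels' protocols, RNA from 500 cells a library was barcoded, amplified by in vitro transcription and sequenced in pairs. The authors deposited raw counts per row and library. STARsolo 2.7.10a and the builds WBcel235 and ce11 are named per the submitters' processing notes; the annotation, strand use and collapse of molecular identifiers are not given in the sources used here. Amplification copies may therefore be counted, and floors cover counting error only. Of 15472 rows, 14605 named worm genes; the remaining spike-in, RIT and reporter rows took 0.377% to 0.796% of the counts of a library and stayed out of totals and tests. RefSeq WBcel235 locus tags gave 14387 of the gene rows a symbol. Positions come from Ensembl annotation of WBcel235.

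Counts were tested with edgeR 4.0.16 in R 4.3.3 (robust glmQLFit and glmQLFTest, TMM, no covariate besides group). Genes were kept by filterByExpr (minimum count 10, minimum total 15), with Benjamini-Hochberg adjustment over 9203 genes and a threshold of 0.05. The code was tested on simulated data. DESeq2 1.42.0, other scalings, filters, equal depth and leaving out each library were alternatives. A level at or under 3 counts in each library of a group was the floor. Values in every library were due for called members and for those with at least 10 counts in 3 libraries; those of other members, among them ceh-1, ceh-14, ceh-21, ceh-34, ceh-48 and ceh-74, are given after they were seen. Of the other lists, the called genes are named. Members and lists were chosen with earlier results of these data known. The description of sequences that had been planned was not made.

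Replicate numbers 1, 2 and 3 occur in both groups. Deviations from the group means correlated at 0.278, 0.157 and 0.279 for libraries of the same number, against −0.256 to 0.0695 for libraries of different numbers. The libraries may thus be paired by number, though the labels state no block. The reported fold changes and calls are nevertheless from the fit without the block; values with it are given where they change a call. Chi-square values between replicates, divided by their degrees of freedom, were 33.3 to 178, above counting noise. The labels call them biological replicates without naming cultures, so p-values measure the spread between these libraries.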

Additional observations from a re-analysis of the deposited data

How the results depend on the processing

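The call of ceh-92 held in every alternative except the fit without non-intestinal replicate 2 (edgeR adjusted p = 0.052). Called lower were 3 members under library totals alone, against 14.4% of all genes tested, and 3 under the replicate block, against 9.84%. There were 2 without a filter, against 6.51% of all genes, and 2 by DESeq2, against 15%. With 1 library left out there were from 0 to 2, against 2.2% to 7.21% of all genes tested. Called higher were 1 member without a filter, against 9.85%, and from 0 to 1 with 1 library left out, against 8.74% to 13.2%. The replicate block changed the calls of ceh-91 and ceh-100 and of no other member. Over all genes, 1246 were called higher and 703 lower, 1061 and 1329 under library totals alone, and 1379 lower by DESeq2. With 1 library left out, from 788 to 1393 were called higher and from 198 to 647 lower.

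The tested members had a median log2 fold change of −0.80 under library totals alone, −0.75 under the replicate block, and from −1.02 to 0.25 with 1 library left out. That of all genes tested was −0.84 under library totals alone, −0.36 under the replicate block, and from −0.48 to 0.06 with 1 library left out.

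Members at or under 3 counts in every intestinal library were 8 with a limit of 0 counts, 34 at equal depth and from 14 to 20 with 1 library left out. For non-intestinal libraries these were 7, 30 and from 16 to 23. With the limit of 0 counts it was 10.4% of all worm gene rows for intestinal and 11.1% for non-intestinal libraries. In intestinal replicate 2 the members detected were 36 at the deposited depth and 23 at equal depth.

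Signs of uncalled members changed under library totals alone for ceh-88 (−0.49) and ceh-39 (−0.30), without a filter for ceh-39 (−0.01), and under the replicate block for ceh-88 (−0.02), ceh-39 (−0.35) and ceh-31 (2.39). With 1 library left out, the log2 fold change ranged from −1.41 to 0.16 for ceh-18, from −0.75 to 0.30 for ceh-22, from −1.73 to 1.11 for ceh-27, from −0.50 to 7.72 for ceh-31, from −1.75 to 0.28 for ceh-32, from −0.16 to 1.31 for ceh-37, from −0.65 to 0.36 for ceh-38, from −1.06 to 1.24 for ceh-39, from −1.78 to 0.34 for ceh-6, from −0.97 to 2.21 for ceh-62 and from −1.02 to 1.14 for ceh-88. The cause of these changes was not tested. Depth limits detection: 3 counts were 0.136 to 2.40 CPM.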
